A study of Mus musculus with 5 samples.

Results

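The genes described here are 10 receptors that sense lipids, hormones and other small molecules. Nuclear receptors are transcription factors that are switched by a small ligand: PPARγ (Pparg) and PPARδ (Ppard) respond to fatty acids, LXRα (Nr1h3) and LXRβ (Nr1h2) to oxysterols, RARα (Rara) and RARγ (Rarg) to retinoic acid, the vitamin D receptor (Vdr) to calcitriol, and the glucocorticoid receptor (Nr3c1) to cortisol or corticosterone. The PPAR, LXR, RAR and vitamin D receptors bind DNA as heterodimers with a retinoid X receptor such as RXRα (Rxra), whereas the glucocorticoid receptor binds mainly as a homodimer. Ahr, the aryl hydrocarbon receptor, senses dioxins and tryptophan metabolites and belongs to a different protein family, the bHLH-PAS factors, so it is a ligand-switched factor but not a nuclear receptor. In myeloid cells, retinoic acid and vitamin D are known for driving differentiation, and PPARγ and the LXRs for regulating lipid handling in macrophages. All 10 symbols were found among the 27526 genes of the deposited normalized table, 1 row each, and all 10 passed the filter on low counts that left 16120 genes for testing.

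Transcripts were measured by RNA sequencing in Kit-positive leukaemia stem cells of the AML1-ETO9a mouse model, in which a truncated form of the RUNX1-RUNX1T1 fusion of human acute myeloid leukaemia causes disease. There were 3 libraries labelled with conditional deletion of Plcg1 (Plcg1 -/-, replicates 2, 4 and 6) and 2 labelled Plcg1 +/+ (replicates 1 and 3), and both groups are labelled as AML1-ETO9a cells. Plcg1 encodes phospholipase C-γ1, and the comparison asks which transcripts go with its deletion in these cells. The sources used here name neither the Cre driver nor the age of the mice, nor whether libraries came from separate mice, so the spread behind the p-values is that between libraries and could be technical.

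Gene counts per library ran from 37306507 to 57133771. Plcg1 itself was at 53.0, 26.9 and 37.1 CPM in deleted 2, 4 and 6, against 22.1 and 34.0 CPM in wild-type 1 and 3 (CPM, read counts relative to a library size scaled by TMM, edgeR's normalization). Reads from exons outside the deleted part stay in a gene total, so this does not check the deletion. Other genes of the description went against the labels in part. Kit was at 672, 304 and 3.08 CPM in deleted 2, 4 and 6, against 26.8 and 32.1 CPM in wild-type, so this defining marker was lowest in deleted 6, which is labelled Kit-positive like the others. Runx1t1, the mouse gene that matches the ETO part of the fusion, was at 106, 74.0 and 13.5 CPM in the deleted libraries, against 0.121 and 0.234 CPM in wild-type. Runx1t1 reads were thus near absent from both libraries labelled wild-type, so the labels or the identity of these cells may be wrong, which was not settled here. Throughout, deleted and wild-type mean the libraries so labelled, and each difference between them rests on those labels. Deleted 6 stood apart, and it was also the only library of sequencing lane 5, so the library and its lane cannot be told apart. The same holds for wild-type 1, the only library of lane 3 and the one with the lowest gene count. Deleted 6 held the highest value of the 5 libraries in 36.2% of tested genes, against 7.83% to 22.7% for each of the others. Its summed level of 8 monocyte and macrophage markers was 5763 CPM, against 1969 to 3680 CPM elsewhere, and that of 6 proliferation genes was 32.7 CPM, against 1036 to 1609 CPM elsewhere. Results are therefore given with and without deleted 6. In bulk RNA, fewer cells of a type and less RNA per cell cannot be told apart.

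With edgeR no receptor gene was called across all 5 libraries, and without deleted 6 Ahr was called higher and Vdr lower. edgeR's quasi-likelihood test with Benjamini-Hochberg adjustment called 0 of the 10 at an adjusted p under 0.05, where it called 0% of all genes in either direction. At an unadjusted p under 0.05 Ahr and Rxra were higher and Vdr lower, where 9.44% and 5.42% of all tested genes were higher and lower. DESeq2 called Ahr higher and Vdr lower (background 5.75% higher and 3.05% lower). limma-voom with sample quality weights called Ahr, Rxra and Vdr (background 7.63% higher and 5.87% lower). Without deleted 6 edgeR called Ahr and Vdr, where 7.89% of genes were called higher and 5.07% lower. No receptor gene was called by edgeR without the filter on low counts (background 0.539% higher, 0.38% lower, 0.919% in all) or in lane 4 alone (1.26% higher, 0.779% lower, 2.03% in all). For Ahr, Rxra and Nr3c1 the lowest deleted value exceeded the highest wild-type value, and for Vdr the highest deleted value was under the lowest wild-type one, where 22.4% and 23.7% of all tested genes did so. With deleted 2 and 4 alone, Rxra, Nr3c1 and Ahr were above and Rara and Vdr below wild-type, where 28.8% and 29.4% of tested genes were. Deleted 6 was the highest library for 7 of the 10, where it was for 36.2% of tested genes, and the lowest for Ppard and Vdr, where it was for 37.9%. The median log2 fold change of the 10, deleted minus wild-type, was 0.38, and 0.01 over all tested genes. It was 0.25 without deleted 6, 0.21 without wild-type 1, 0.57 without wild-type 3 and 0.11 in lane 4 alone.

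Some markers of other blood cells moved with some of these genes. The sum of 6 megakaryocyte markers was 359, 523 and 556 CPM in deleted 2, 4 and 6, against 84.5 and 77.2 CPM in wild-type 1 and 3. Of the 6, 3 were higher in every deleted library, where 22.4% of all tested genes were. The sum of 6 dendritic cell markers was 133, 112 and 770 CPM in the deleted libraries, against 14.8 and 13.5 CPM in wild-type. Most of it was Itgax, at 120, 97.5 and 756 CPM in deleted 2, 4 and 6, against 11.5 and 8.25 CPM in wild-type. Of the 6 markers, 3 were higher and 1 was lower in every deleted library, where 22.4% and 23.7% of all tested genes were. In deleted 6, where the sum peaked, 3 of the 6 had their lowest value, as did 37.9% of all tested genes. The sum of 8 mast cell markers was 10937, 4932 and 36.3 CPM, against 83.6 and 131 CPM in wild-type. Without deleted 6 edgeR called 8 of the 8 higher, where 7.89% of all tested genes were called higher. Only 7 of the 8 passed the filter on low counts when deleted 2 or deleted 4 was left out. At least 1 marker thus passed through deleted 2 and 4, where it was high, so the filter fixed its direction. The megakaryocyte and dendritic sums thus shared the direction of Ahr and Rxra in every deleted library and the mast cell sum in deleted 2 and 4, and their part in the results for the receptors and their targets was not tested.

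**Figure D1:**
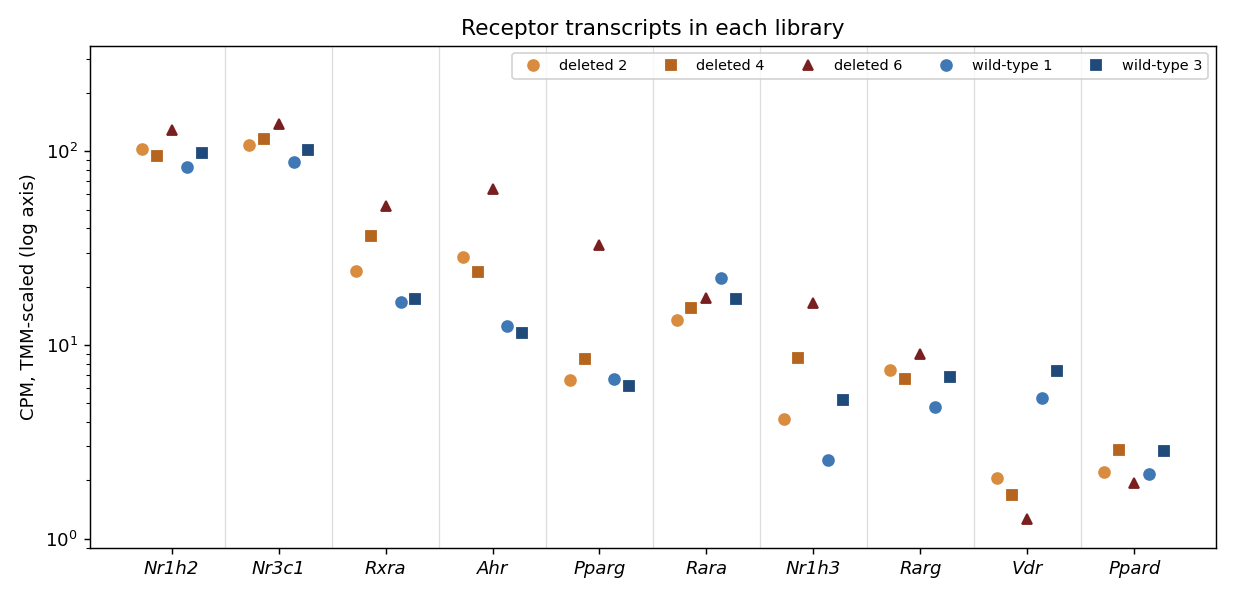
Level of each receptor transcript in each library, in TMM-scaled CPM on a log axis, with the 3 deleted libraries (brown) left of the 2 wild-type libraries (blue) and genes ordered by length-scaled mean. Ahr and Rxra are higher in every deleted library, Vdr is lower in every one, and Pparg is high in deleted 6.

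The shared heterodimer partner, Rxra (ENSMUSG00000015846.13; mm10 chromosome 2, 27676440 to 27762957, plus strand), was higher in every deleted library. Rxra had 24.04, 36.7 and 52.1 CPM in deleted 2, 4 and 6, against 16.7 and 17.3 CPM in wild-type 1 and 3. The wild-type pair lay close together, the deleted libraries were spread widely, and the groups did not overlap. Its log2 fold change was 1.15 ± 0.37 (SE; adjusted p = 0.286, edgeR) and 0.85 ± 0.23 without deleted 6 (adjusted p = 0.0602), while limma-voom gave 1.00 ± 0.22 (adjusted p = 0.0378). Rxrb, which encodes another retinoid X receptor, went the other way in value, at 79.2, 67.2 and 53.1 CPM in the deleted libraries and 81.7 and 87.2 CPM in wild-type (log2 fold change -0.34 ± 0.22, adjusted p = 0.483). The remaining gene of that family, Rxrg, had no count in any library.

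The vitamin D receptor had the most negative log2 fold change of the 10. Vdr (ENSMUSG00000022479.14; chromosome 15, 97854425 to 97910630, minus strand) was at 2.07, 1.68 and 1.27 CPM in deleted 2, 4 and 6, against 5.30 and 7.35 CPM in wild-type 1 and 3. These are small counts, 118, 89 and 56 reads in the deleted libraries and 220 and 408 in wild-type, yet the groups did not overlap. The means were 1.67 ± 0.401 CPM (SD, n = 3) in deleted and 6.33 ± 1.45 CPM (SD, n = 2) in wild-type libraries. The log2 fold change was -1.92 ± 0.38 (adjusted p = 0.172, edgeR) and -1.74 ± 0.31 without deleted 6 (adjusted p = 0.0171). DESeq2 gave an adjusted p of 4.03e-05 with all 5 libraries. Within sequencing lane 4, which held deleted 2, deleted 4 and wild-type 3, the log2 fold change was -1.96 ± 0.34 (adjusted p = 0.0802), on the assumption that wild-type 3 varies as the deleted pair does.

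No gene known to respond to vitamin D in other settings was called. Of 12 listed, 7 were tested and none was called with all 5 libraries or without deleted 6 (edgeR; unadjusted p under 0.05 for 0 and 1 of them), nor by DESeq2 or limma-voom. Cyp24a1, the calcitriol-degrading enzyme that is the classical target, had no reads in the deleted libraries and 0.0482 and 0.0180 CPM in wild-type. Spp1, osteopontin, was at 1450, 4034 and 7000 CPM in deleted 2, 4 and 6, against 2545 and 3391 CPM in wild-type, so the groups overlapped. Among the members with the smallest p without deleted 6, Fbp1 and Slc37a2 had positive log2 fold changes there of 1.58 ± 0.65 and 1.20 ± 0.53 (adjusted p = 0.166 and 0.196). Thbd and Cebpb had negative ones, -0.85 ± 0.36 and -0.38 ± 0.20 (adjusted p = 0.184 and 0.273). Cyp2r1, the hydroxylase of the first activation step, was at 1.70, 1.21 and 2.06 CPM in the deleted libraries and 0.386 and 0.288 CPM in wild-type (2.12 ± 0.46 without deleted 6, adjusted p = 0.0312, edgeR).

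RefSeq promoter windows (GRCm38.p6, 250 bases before to 50 after a listed start) are shown for 3 receptor genes as examples of different patterns: Vdr, low in every deleted library, Rxra, high in every one, and Pparg, high in deleted 6. Windows were found for 8 of the 10 genes, 16 windows in all. Capitals mark GGGCGG, the GC box bound by Sp and Klf factors, in the Vdr window, and AGGTCA, the hexamer that nuclear receptors bind, in the others, on either strand.
Vdr, chr15:97908247-97908546, minus strand: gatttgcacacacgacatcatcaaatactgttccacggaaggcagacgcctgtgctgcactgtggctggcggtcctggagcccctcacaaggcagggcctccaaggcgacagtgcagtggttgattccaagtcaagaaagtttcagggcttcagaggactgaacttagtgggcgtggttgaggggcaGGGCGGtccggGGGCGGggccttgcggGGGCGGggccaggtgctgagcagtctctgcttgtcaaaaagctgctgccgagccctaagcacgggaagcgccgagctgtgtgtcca
Rxra, chr2:27709042-27709341, plus strand: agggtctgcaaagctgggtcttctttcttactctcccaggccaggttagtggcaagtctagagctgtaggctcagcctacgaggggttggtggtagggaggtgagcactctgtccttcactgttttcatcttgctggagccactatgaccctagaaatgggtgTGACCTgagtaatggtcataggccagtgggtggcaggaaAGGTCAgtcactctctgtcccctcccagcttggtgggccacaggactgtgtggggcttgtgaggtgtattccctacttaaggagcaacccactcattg
Pparg, chr6:115360894-115361193, plus strand: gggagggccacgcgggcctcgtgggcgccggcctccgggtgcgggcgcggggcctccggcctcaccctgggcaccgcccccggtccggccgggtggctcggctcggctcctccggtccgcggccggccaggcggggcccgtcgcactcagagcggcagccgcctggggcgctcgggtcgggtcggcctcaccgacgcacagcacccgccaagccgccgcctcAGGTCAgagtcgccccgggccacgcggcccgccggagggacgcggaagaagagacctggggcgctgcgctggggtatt
The Vdr window holds 3 GC boxes and no AGGTCA. The second Rxra start holds 2 AGGTCA hexamers and the first Pparg start 1. These starts were picked because they hold the hexamer: the first Rxra start holds 0, with 4 GC boxes, and the other Pparg starts hold 1 and 0. Over all 32851 RefSeq windows of this length, 35.7% hold GGGCGG and 16.3% hold AGGTCA, so a match describes the letters only, and gene counts do not tell which start was used.

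Ahr had the largest positive log2 fold change of the 10. The gene (ENSMUSG00000019256.16; chromosome 12, 35497974 to 35535038, minus strand) was at 28.4, 23.7 and 63.8 CPM in deleted 2, 4 and 6, against 12.5 and 11.5 CPM in wild-type 1 and 3. All 3 deleted libraries were above wild-type, and deleted 6 was more than 2-fold above every other library, which held for 8.77% of tested genes. The log2 fold change was 1.68 ± 0.51 (adjusted p = 0.274, edgeR) and 1.13 ± 0.18 without deleted 6 (adjusted p = 0.0119). DESeq2 gave an adjusted p of 0.0393. A noncoding gene on the opposite strand, Gm48236, overlaps 127 bases of its exons, and without strand such reads cannot be assigned.

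Of the listed genes that AHR is known to switch on, most of those tested had higher values in every deleted library. The list held 12 genes, of which 9 were tested, and all 3 deleted libraries lay above both wild-type libraries in 6 of the 9 and below in 0, where all tested genes gave 22.4% and 23.7%. Its median log2 fold change was 1.68 with all 5 libraries and 1.59 without deleted 6, against 0.01 and -0.01 over all tested genes. edgeR called none across all 5 libraries (5 higher, 0 lower, unadjusted p under 0.05, against 9.44% and 5.42% of all tested genes). DESeq2 and limma-voom called 5 higher each, where 5.75% and 7.63% of genes were called higher. Without deleted 6 edgeR called 7 higher and 0 lower, where 7.89% of genes were called higher. Cyp1b1 is among the 6 above wild-type and the 7 called, and it counts in the medians. It passed the filter on low counts through the deleted libraries alone, so the filter fixed its direction. Without the filter on low counts, 11 of the 12 could be fitted and their median was 1.85, with 3 called higher. The megakaryocyte and dendritic cell marker sums given above were also higher in every deleted library. The mast cell sum was higher in each deleted library but deleted 6. The part of these sums was not tested. The list was written with earlier results of these data known, so its direction is a description.

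Cyp1b1, a cytochrome P450 widely used as a readout of AHR, was almost silent in wild-type. It had 799, 262 and 614 counts (14.0, 4.95 and 13.9 CPM) in deleted 2, 4 and 6, against 4 and 0 counts in wild-type 1 and 3. Every deleted library was far above both wild-type libraries, and the ratio of summed counts, deleted over wild-type, was 263 with a 95% counting interval of 103 to 967. The gene passed the filter on low counts through the deleted libraries alone, so a fitted fold change is not given. Its sister genes of the liver response, Cyp1a1 and Cyp1a2, stayed at or below 0.0350 CPM in every library. Ahrr, the AHR repressor, a feedback gene, was at 13.5, 8.83 and 19.2 CPM in the deleted libraries, against 5.04 and 3.94 CPM in wild-type (log2 fold change without deleted 6, 1.33 ± 0.29, adjusted p = 0.0330). Tiparp, an ADP-ribosyltransferase that also feeds back on AHR, was at 127, 131 and 218 CPM, against 72.8 and 74.8 CPM in wild-type (0.82 ± 0.12 without deleted 6, adjusted p = 0.00902). Nqo1, a quinone reductase shared with the Nrf2 response, was at 58.7, 28.6 and 29.2 CPM, against 8.80 and 7.67 CPM in wild-type (2.42 ± 0.34 without deleted 6, adjusted p = 0.00768). Lpcat2, a lysophospholipid acyltransferase, had the smallest unadjusted p of the list, 0.000614 with all 5 libraries, at 115, 136 and 153 CPM, against 37.0 and 47.2 CPM in wild-type (1.68 ± 0.23, adjusted p = 0.131).

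A pair of listed genes had their high values in deleted 2 and 4 only. Scin, the actin-severing protein adseverin, was at 239, 82.1 and 1.27 CPM in deleted 2, 4 and 6, against 7.09 and 8.50 CPM in wild-type. Aldh3a1, an aldehyde dehydrogenase, was at 4.24, 3.51 and 0 CPM, against 0.193 and 0.252 CPM in wild-type. The mast cell marker sum had that order too, and its part in these values was not tested. Nfe2l2 and Ugt1a6a were not called in any of these fits. Ugt1a6a, a glucuronosyltransferase, was at 2.70, 3.00 and 5.40 CPM in the deleted libraries and 4.07 and 3.39 CPM in wild-type, and its counts are uncertain because the locus holds near-identical copies. Arnt, the partner that AHR needs to bind DNA, was at 72.1, 71.6 and 74.9 CPM in the deleted libraries, next to 65.2 and 70.3 CPM for wild-type (log2 fold change 0.10, adjusted p = 0.734).

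**Figure D2:**
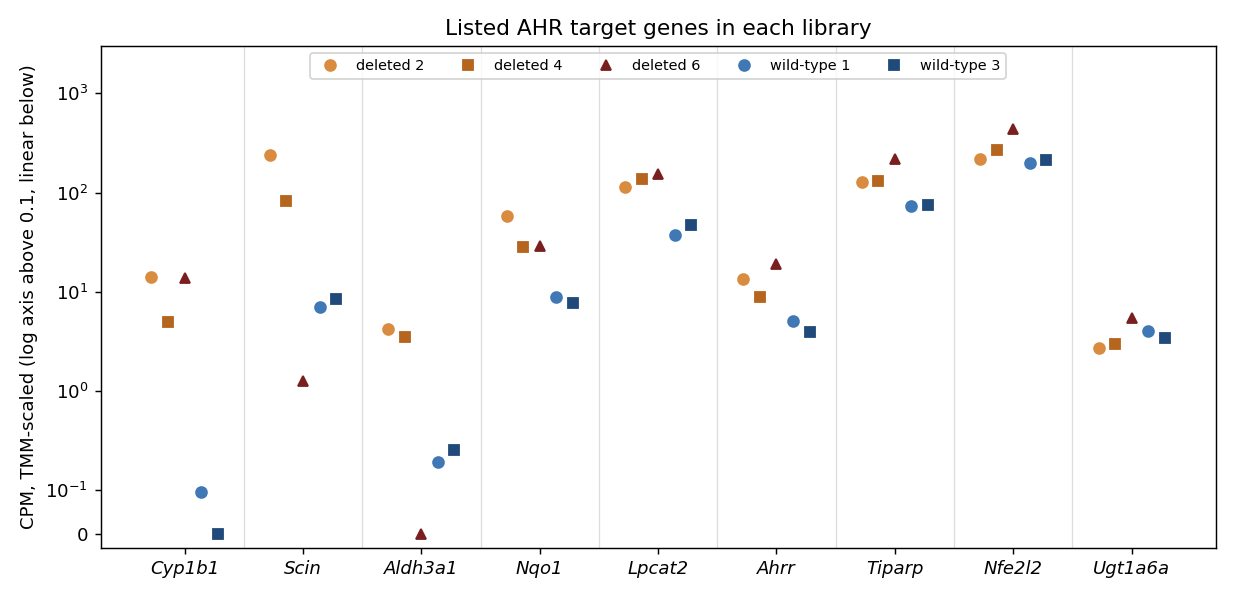
The 9 tested genes of the AHR target list in each library, in TMM-scaled CPM, on a log axis above 0.1 and a linear one below, with deleted libraries (brown) left of wild-type (blue). Cyp1b1, Nqo1, Lpcat2, Ahrr, Tiparp and Nfe2l2 are higher in all 3 deleted libraries, and Scin and Aldh3a1 are low in deleted 6.

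The RefSeq windows of the AHR targets that were called without deleted 6 and are higher in all 3 deleted libraries are given with the AHR-ARNT core GCGTG, read on either strand, in capitals.
Cyp1b1, chr17:79715012-79715311, minus strand: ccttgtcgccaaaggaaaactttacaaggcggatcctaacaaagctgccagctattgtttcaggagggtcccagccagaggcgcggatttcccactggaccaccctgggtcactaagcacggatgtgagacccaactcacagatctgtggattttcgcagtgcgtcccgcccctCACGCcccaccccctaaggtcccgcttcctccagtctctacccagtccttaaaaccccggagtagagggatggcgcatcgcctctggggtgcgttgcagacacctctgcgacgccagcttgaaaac
Ahrr, chr13:74292282-74292581, minus strand: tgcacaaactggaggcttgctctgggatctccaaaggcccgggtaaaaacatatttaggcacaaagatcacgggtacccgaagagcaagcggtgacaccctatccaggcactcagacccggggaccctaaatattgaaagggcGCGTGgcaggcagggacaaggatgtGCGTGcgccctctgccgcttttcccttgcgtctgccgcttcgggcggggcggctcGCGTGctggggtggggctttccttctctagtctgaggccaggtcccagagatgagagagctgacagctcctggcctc
Tiparp, chr3:65528197-65528496, plus strand: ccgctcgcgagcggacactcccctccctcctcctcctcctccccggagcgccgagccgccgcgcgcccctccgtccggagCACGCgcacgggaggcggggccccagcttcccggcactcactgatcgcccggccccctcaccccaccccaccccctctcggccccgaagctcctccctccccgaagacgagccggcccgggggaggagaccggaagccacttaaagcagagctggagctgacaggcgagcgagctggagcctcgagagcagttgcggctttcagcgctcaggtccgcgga
Nqo1, chr8:107403156-107403455, minus strand: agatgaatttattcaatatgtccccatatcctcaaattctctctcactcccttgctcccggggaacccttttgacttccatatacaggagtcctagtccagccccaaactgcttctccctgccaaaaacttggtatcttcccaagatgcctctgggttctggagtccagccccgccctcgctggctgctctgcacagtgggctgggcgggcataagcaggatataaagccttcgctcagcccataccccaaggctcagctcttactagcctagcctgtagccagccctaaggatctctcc
Lpcat2, chr8:92855083-92855382, plus strand: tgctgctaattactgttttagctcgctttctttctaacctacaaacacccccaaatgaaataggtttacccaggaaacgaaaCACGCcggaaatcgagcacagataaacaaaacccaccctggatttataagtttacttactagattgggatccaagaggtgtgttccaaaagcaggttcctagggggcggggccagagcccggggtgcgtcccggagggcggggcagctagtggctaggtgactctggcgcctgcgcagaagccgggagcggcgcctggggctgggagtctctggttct
Ahrr holds 3 matches, Cyp1b1, Tiparp and Lpcat2 hold 1 each and Nqo1 holds 0. Of the 11 windows found for the list 6 hold the core, against 32.4% of all 32851 windows. The window of Cyp1a1, near absent in every library, is among these 6. Of the 16 windows of the receptor genes, 6 hold the core as well. Enhancers further away were not examined.

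The lipid receptors of macrophages, Pparg and Nr1h3, had their highest values in deleted 6. Pparg (ENSMUSG00000000440.11; chromosome 6, 115360951 to 115490399, plus strand) was at 6.62, 8.49 and 33.02 CPM in deleted 2, 4 and 6, against 6.65 and 6.12 CPM in wild-type 1 and 3. Deleted 2 lay within the wild-type range and deleted 6 was 5.17 times the wild-type mean. The log2 fold change was 1.33 ± 0.80 (adjusted p = 0.462, edgeR) and 0.25 ± 0.25 without deleted 6 (adjusted p = 0.568). Nr1h3 (ENSMUSG00000002108.9; chromosome 2, 91184061 to 91202834, minus strand) was at 4.17, 8.55 and 16.5 CPM in the deleted libraries, against 2.56 and 5.22 CPM in wild-type. Wild-type 3 was above deleted 2, so the groups overlapped (log2 fold change 1.32 ± 0.70, adjusted p = 0.417, and 0.72 ± 0.47 without deleted 6, adjusted p = 0.383).

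Their sister receptors varied little. Nr1h2 (chromosome 7, 44549616 to 44553951, minus strand), the widely expressed LXR, was at 102, 94.5 and 129 CPM in the deleted libraries, against 83.1 and 98.1 CPM in wild-type (log2 fold change 0.26 ± 0.21, adjusted p = 0.559). Ppard (chromosome 17, 28232700 to 28301474, plus strand) was at 2.23, 2.89 and 1.94 CPM, against 2.17 and 2.83 CPM in wild-type (-0.09 ± 0.38, adjusted p = 0.913), and the sign turned without deleted 6 (0.04 ± 0.34). Both pairs of values overlapped between groups. The monocyte and macrophage marker sum was highest in deleted 6 as well, led by Cd68, which had 2451 CPM there and between 482 and 967 CPM elsewhere. Of its 8 markers 5 were highest there and 1 lowest, where 36.2% and 37.9% of all tested genes were. The part of this sum in the Pparg and Nr1h3 values was not tested.

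Targets of the lipid receptors did not move one way. Of 18 PPAR targets 15 were tested, and edgeR called none with all 5 libraries (2 higher, 0 lower, unadjusted p under 0.05), and 2 higher and 1 lower without deleted 6. DESeq2 called 1 higher and limma-voom 2 higher and 2 lower. Over all tested genes 7.89% were called higher and 5.07% lower without deleted 6, and the shares for the other fits are given above. Cd36, a fatty acid transporter and scavenger receptor, was at 413, 474 and 1597 CPM in deleted 2, 4 and 6, against 61.0 and 132 CPM in wild-type. It thus stood above wild-type in all 3 deleted libraries, including the pair in which Pparg was near the wild-type level (2.21 ± 0.35 without deleted 6, adjusted p = 0.0106). Acaa2, a mitochondrial thiolase, fell by 0.65 ± 0.15 without deleted 6 (adjusted p = 0.0348). Angptl4, an inhibitor of lipoprotein lipase, had -0.61 ± 0.18 in that fit (adjusted p = 0.0781).

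Of 16 LXR targets 13 were tested, with a median log2 fold change of -0.12, whose sign turned without the filter on low counts (0.17), without deleted 2 (0.09) and without wild-type 3 (0.14). edgeR called none with all 5 libraries (1 higher, 0 lower, unadjusted p under 0.05, against 9.44% and 5.42% of all tested genes). Without deleted 6 edgeR called 2 higher, where 7.89% of genes were called higher. DESeq2 and limma-voom called 1 higher each, where 5.75% and 7.63% of genes were called higher. Abcg1, a cholesterol exporter, was at 22.7, 28.2 and 164 CPM in the deleted libraries, against 12.9 and 13.7 CPM in wild-type (0.95 ± 0.19 without deleted 6, adjusted p = 0.0229). Arl4c, a small GTPase, was at 6.76, 8.14 and 11.9 CPM, against 2.77 and 2.43 CPM (1.53 ± 0.27, adjusted p = 0.0158). Abca1, the exporter most tied to LXR, did not follow: it was at 6.76, 21.2 and 55.9 CPM in the deleted libraries and 27.0 and 45.4 CPM in wild-type (-1.36 ± 0.52 without deleted 6, adjusted p = 0.141). The lipogenic gene Scd2 was at 626, 553 and 317 CPM, against 722 and 909 CPM in wild-type. Fasn was below wild-type in every deleted library too, with neither called. Ch25h, which makes the LXR ligand 25-hydroxycholesterol, was at 10.004, 11.2 and 39.2 CPM in deleted libraries, against 2.10 and 3.24 CPM in wild-type (1.99 ± 0.30 without deleted 6, adjusted p = 0.00876).

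The retinoic acid receptors showed small differences. Rara (ENSMUSG00000037992.15; chromosome 11, 98927818 to 98974942, plus strand), the receptor rearranged in human promyelocytic leukaemia, was at 13.5, 15.6 and 17.6 CPM in the deleted libraries, against 22.2 and 17.2 CPM in wild-type (log2 fold change -0.34 ± 0.24, adjusted p = 0.511). Deleted 2 and 4 were below both wild-type libraries and deleted 6 was not. Rarg (chromosome 15, 102234938 to 102257517, minus strand) was at 7.43, 6.70 and 8.98 CPM, against 4.77 and 6.83 CPM (0.41 ± 0.32, adjusted p = 0.545), and the groups overlapped. Rarb, the remaining receptor and itself a retinoic acid target, stayed at or below 0.113 CPM.

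Of 17 retinoic acid targets 10 were tested. edgeR called none with all 5 libraries (2 higher, 1 lower, unadjusted p under 0.05), and 2 higher and 1 lower without deleted 6. By DESeq2 there was 1 call in each direction, and likewise by limma-voom. The shares of all tested genes called higher and lower were 7.89% and 5.07% without deleted 6. They were 5.75% and 3.05% by DESeq2 and 7.63% and 5.87% by limma-voom. The retinoic acid hydroxylases Cyp26a1 and Cyp26b1, its most direct readouts, were at or below 0.123 CPM in every library. Rarres1, a retinoid-responsive membrane protein, was at 3.07, 2.00 and 2.28 CPM in the deleted libraries, against 0.482 and 0.504 CPM in wild-type (2.37 ± 0.42 without deleted 6, adjusted p = 0.0156). Asb2, a ubiquitin ligase subunit, had 47, 18 and 0 counts in deleted 2, 4 and 6, against 1 and 0 in wild-type. Its summed ratio was 40.9, with a 95% counting interval of 7.08 to 1639. Asb2 is 1 of the 2 genes called higher without deleted 6. It passed the filter on low counts through deleted 2 and 4 alone, so the filter fixed its direction. Cebpe, a factor of late granulocyte maturation, was at 19.0, 25.2 and 1.63 CPM, against 39.8 and 34.0 CPM in wild-type (-0.73 ± 0.20 without deleted 6, adjusted p = 0.0582). The 8 neutrophil and promyelocyte markers were all lowest in deleted 6, where 37.9% of all tested genes were, and the markers' part in the Cebpe values was not tested.

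On the supply side, some of the genes that make or break down receptor ligands were higher in every deleted library. Of 28 listed 18 were tested, and all 3 deleted libraries were above both wild-type libraries in 7 and below in 0, against 22.4% and 23.7% of all genes. Aldh1a2 is among the 7. It passed the filter on low counts through deleted 4 and 6 alone, so the filter fixed its direction. The median log2 fold change of the 18 was 1.07, and 0.95 over the 15 tested without deleted 6. It was 0.66 without deleted 4, and without the filter on low counts it was 0.46 over all 28, of which 3 were below wild-type in every deleted library. The megakaryocyte and dendritic cell marker sums were also higher in every deleted library, and the mast cell sum in each but deleted 6. The part of these sums was not tested. edgeR called none with all 5 libraries (5 higher, 0 lower, unadjusted p under 0.05, against 9.44% and 5.42% of all tested genes). Without deleted 6 edgeR called 5 higher, where 7.89% of genes were called higher and 5.07% lower. DESeq2 called 4 and limma-voom 5 higher, where 5.75% and 7.63% of genes were called higher. Dhrs9, a retinol dehydrogenase, was at 56.5, 74.1 and 159 CPM in the deleted libraries, against 9.79 and 14.7 CPM in wild-type (2.42 ± 0.25 without deleted 6, adjusted p = 0.00252). Hpgds, the haematopoietic prostaglandin D synthase, was at 33.9, 59.0 and 78.6 CPM, against 6.73 and 8.81 CPM (2.59 ± 0.30, adjusted p = 0.00400). Il4i1, an amino acid oxidase whose products can activate AHR, was at 8.39, 5.55 and 2.33 CPM, against 2.31 and 1.41 CPM (1.92 ± 0.38, adjusted p = 0.0221). With Ch25h and Cyp2r1 these are the 5 calls. Aldh1a2, which makes retinoic acid, was at 0.175, 0.415 and 5.63 CPM, against 0.0482 and 0.162 CPM, so that only deleted 6 exceeded 1 CPM. Cyp27a1 and Ptgs1 had negative values without deleted 6, -1.38 ± 0.43 and -0.36 ± 0.24, and neither was called.

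The glucocorticoid receptor was among the most abundant of the 10 and varied little. Nr3c1 (ENSMUSG00000024431.13; chromosome 18, 39410545 to 39519421, minus strand) was at 108, 115 and 138 CPM in deleted 2, 4 and 6, against 88.3 and 101 CPM in wild-type 1 and 3. The groups did not overlap but lay close (log2 fold change 0.34 ± 0.19, adjusted p = 0.439, and 0.25 ± 0.14 without deleted 6, adjusted p = 0.292). All 18 listed targets were tested. edgeR called none with all 5 libraries (6 higher, 0 lower, unadjusted p under 0.05, against 9.44% and 5.42% of all tested genes). Without deleted 6 edgeR called 3 higher, where 7.89% of genes were called higher and 5.07% lower. DESeq2 called 3 and limma-voom 4 higher, where 5.75% and 7.63% of genes were called higher. Sgk1, a kinase of ion transport, was at 203, 222 and 1361 CPM in the deleted libraries, against 79.8 and 64.9 CPM in wild-type (1.57 ± 0.15 without deleted 6, adjusted p = 0.00225). Mt2, a metal-binding metallothionein, was at 8.32, 11.2 and 38.7 CPM, against 1.28 and 0.666 CPM (3.35 ± 0.40, adjusted p = 0.00410). Anxa1, an anti-inflammatory annexin, was the remaining call, at 1110, 1544 and 5396 CPM, against 370 and 501 CPM in wild-type (1.62 ± 0.23 without deleted 6, adjusted p = 0.00801).

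Other glucocorticoid targets gave different patterns. Fkbp5, an immunophilin that restrains the receptor and is among its most used readouts, was at 120, 101 and 29.6 CPM in the deleted libraries, against 135 and 169 CPM in wild-type (-0.45 ± 0.16 without deleted 6, adjusted p = 0.129). Per1, a clock gene with a glucocorticoid response element, was at 4.49, 3.59 and 4.77 CPM, against 4.72 and 4.09 CPM. Cd163 and Il1r2 had -2.09 ± 0.64 and -0.65 ± 0.21 without deleted 6 (adjusted p = 0.0823 and 0.0996). Of the 12 tested partners and chaperones, edgeR called none in either fit (unadjusted p under 0.05 for 0 with all 5 libraries and for 1 in each direction without deleted 6), nor did DESeq2 or limma-voom. Among them Hspa8 and Arnt2 had 0.47 ± 0.15 and 2.09 ± 1.18 without deleted 6, and Fkbp4 had -0.34 ± 0.15.

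Among 22 tested coactivators and corepressors, edgeR called none with all 5 libraries (4 higher, 0 lower, unadjusted p under 0.05) and 2 higher without deleted 6. DESeq2 and limma-voom called 3 higher each. The shares of all tested genes called higher were 7.89% without deleted 6, 5.75% by DESeq2 and 7.63% by limma-voom. Nrip1, a corepressor recruited by liganded receptors, was at 64.1, 51.2 and 59.2 CPM in the deleted libraries, against 22.7 and 21.4 CPM in wild-type. Its deleted values lay close together, deleted 6 included (1.40 ± 0.19, adjusted p = 0.133, and 1.40 ± 0.17 without deleted 6, adjusted p = 0.00415). Ncoa3, a p160 coactivator, was at 137, 137 and 142 CPM, against 68.1 and 84.2 CPM (0.86 ± 0.15 without deleted 6, adjusted p = 0.0147). The corepressor genes Ncor1 and Gps2 had -0.16 ± 0.14 and -0.26 ± 0.14 without deleted 6, and neither was called.

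**Figure D3:**
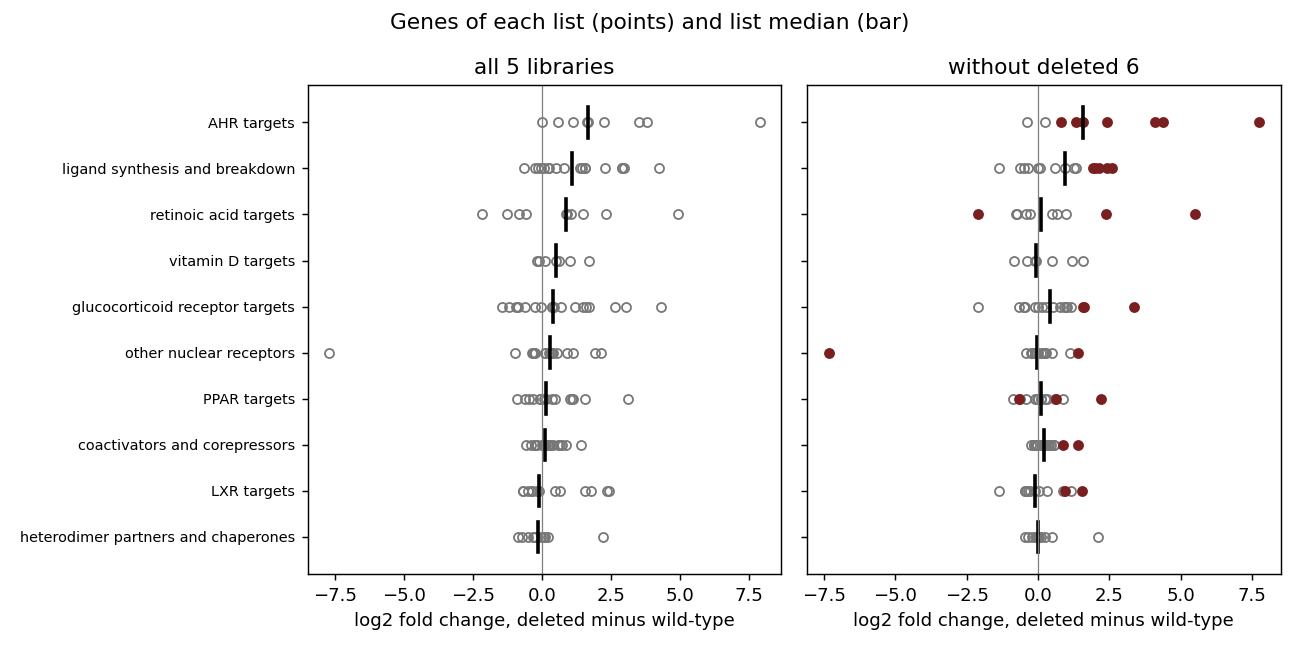
Log2 fold change (deleted minus wild-type) of every tested gene of 10 lists, with all 5 libraries (left) and without deleted 6 (right); filled points are called at an adjusted p under 0.05 and black bars are list medians. The AHR target list, Cyp1b1 included, has the highest median in both panels, 1.68 and 1.59.

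Of 39 further nuclear receptor genes, 18 passed the filter and were tested. edgeR called none with all 5 libraries (2 higher, 1 lower, unadjusted p under 0.05). It called 1 in each direction without deleted 6, as did DESeq2 and limma-voom with all 5. Over all tested genes 7.89% were called higher and 5.07% lower without deleted 6, and the shares for the other fits are given above. Nr1d2 (REV-ERBβ), a haem-binding clock repressor, was at 27.1, 32.6 and 70.4 CPM in the deleted libraries, against 10.9 and 11.9 CPM in wild-type (1.40 ± 0.18 without deleted 6, adjusted p = 0.00553). Rora, which binds the same DNA element as the REV-ERBs, was at 7.01, 11.1 and 37.7 CPM, against 4.31 and 4.07 CPM (1.123 ± 0.30, adjusted p = 0.0558). Hnf4a, a receptor best known in liver, had 0, 1 and 0 counts in deleted 2, 4 and 6, against 47 and 145 in wild-type 1 and 3. The ratio of wild-type over deleted, from summed counts, was 305, with a 95% counting interval of 54.2 to 12124. Hnf4a is the gene called lower without deleted 6. It passed the filter on low counts through the wild-type libraries alone, so the filter fixed its direction.

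Per kilobase of merged exons, LXRβ and the glucocorticoid receptor dominated the family in every library. Nr1h2 averaged 32.4 ± 5.44 CPM per kilobase in deleted libraries (SD, n = 3) and 27.0 ± 3.15 in wild-type (SD, n = 2). Nr3c1 followed at 15.7 ± 2.02 in deleted and 12.3 ± 1.19 in wild-type libraries, and neither range touched its neighbour's. In deleted libraries Rxra, Ahr, Pparg, Nr1h3 and Rara came next, at 6.89, 6.27, 5.43, 3.87 and 3.56 CPM per kilobase. Neighbours within this run overlapped in range. Rarg followed at 1.81, and Ppard and Vdr at 0.313 and 0.296 shared last place. In wild-type libraries Rara was next at 4.51, then Rxra at 3.11 and Pparg at 2.16. Ahr, Nr1h3, Rarg and Vdr followed at 1.95, 1.55, 1.36 and 1.1197, and neighbours within this run overlapped in range. Ppard was last at 0.333, with a range below that of Vdr. The sum of the 10 was 63.0, 65.8 and 101 CPM per kilobase in deleted 2, 4 and 6, against 52.1 and 58.8 in wild-type. Pparg made up 11.1% of that sum in deleted 6, against 3.53% to 4.37% in the other libraries, and Vdr 0.581%, 0.452% and 0.222% in the deleted libraries, against 1.803% and 2.21% in wild-type.

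**Figure D4:**
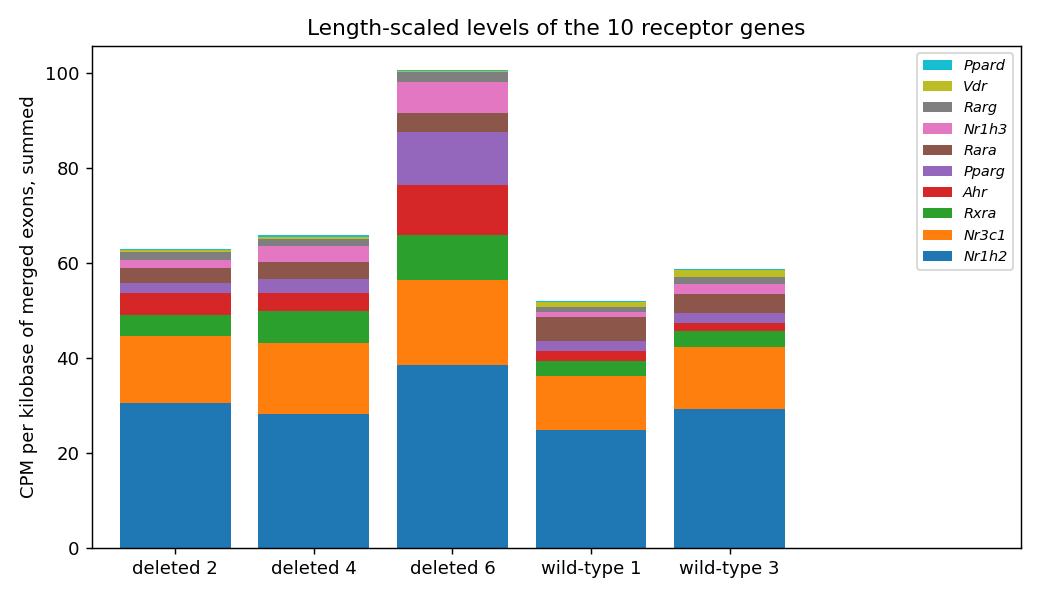
Summed CPM per kilobase of merged exons of the 10 receptor genes in each library, with deleted libraries left of wild-type. The deleted 6 bar reaches 101, with larger Pparg, Ahr and Nr1h3 parts, against 52.1 and 58.8 in wild-type.

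Across the 5 libraries Nr1h3, Vdr and Ahr had the widest ranges of log2 CPM, 2.67, 2.50 and 2.46, and Ppard the narrowest, 0.56. Of 8802 well-expressed genes, the closest profiles to Ahr were those of Tef, Eif5a2 and Zbtb20, with root mean square differences in centred log2 CPM of 0.06, 0.07 and 0.07. Tef was at 54.0, 48.9 and 134 CPM in the deleted libraries and 24.2 and 22.3 CPM in wild-type. Closest to Nr1h3 were Samd9l, Pdp1 and Plxnc1 (0.12, 0.12 and 0.13), and closest to Vdr were Rabgap1l, Rogdi and Hspa2 (0.16, 0.19 and 0.20). With 5 libraries and 8802 genes searched such likeness is a description only. Among the receptors themselves, Nr1h2 and Nr3c1 were the most alike pair (0.09) and Vdr and Ahr the least alike (1.83).

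**Figure D5:**
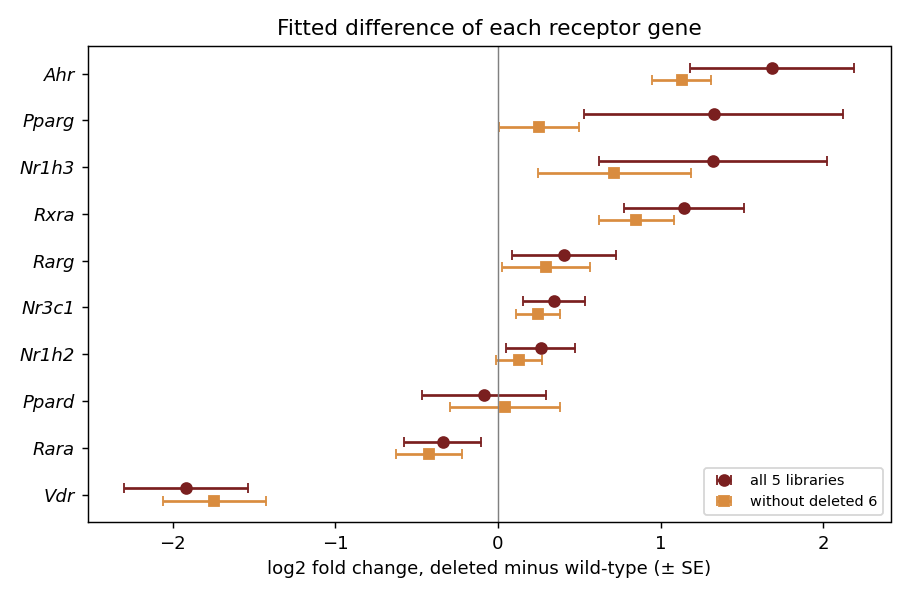
Fitted log2 fold change of each receptor gene, deleted minus wild-type, with its standard error, for all 5 libraries (circles) and without deleted 6 (squares). Vdr lies at -1.92 and -1.74, and Pparg lies at 1.33 with deleted 6 and at 0.25 without it.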

How the data were processed

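The tools named per the submitters' processing notes are DESeq2 1.12.4, bcl2fastq 1.8.4 and STAR, with the mm10 build, and per the labels reads were single-end, 50 bp. Libraries came from SMART-Seq v4 and Nextera XT kits, per the labels, which do not mark strand. How reads were assigned to genes is not stated in the labels. The authors deposited whole-number counts per gene for each library and 2 series tables, the normalized signal (each count over its library's size factor, equal within 3.84e-09) and a log2 table, deposited by the authors and not used for tests. Rows that name no gene stayed out: 5.89% to 8.09% of reads had no feature, 2.36% to 2.78% were ambiguous, 2.48% to 4.13% were unaligned and 13.0% to 15.1% aligned to several places.

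Counts were filtered with filterByExpr, TMM-scaled and tested with edgeR 4.0.16 (quasi-likelihood, 3 residual degrees of freedom; limma 3.58.1, R 4.3.3) on all genes, with Benjamini-Hochberg adjustment and calls at an adjusted p under 0.05. DESeq2 1.42.0 was an alternative. The SE is the log2 fold change over the square root of F. A count of 3 is 0.0526 to 0.0723 CPM. Intervals and such limits cover counting error only. An exact two-sided permutation test of 3 against 2 cannot go below 0.1, so none was used. Lengths and coordinates are from GENCODE M21 (GRCm38, the same build as mm10).

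The members and lists were chosen with earlier results of these data known. All 10 members are named. From each other list come up to 2 genes in each direction with the smallest p without deleted 6, and the nearest profiles are given for the 3 members with the widest range. Cyp24a1, Spp1, Il4i1, Rarb, Rxrg, Fkbp5, Cyp2r1, Fasn, Ch25h, Aldh1a2, Anxa1, Per1, Cyp26a1, Cyp26b1, Arnt, Cyp1a1, Cyp1a2, the remaining AHR targets and Cd68 were chosen after their values were seen. Some genes that the rule names are not reported here.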

Additional observations from a re-analysis of the deposited data

How the results depend on the processing

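No paired analysis was possible because the groups share no replicate number. With edgeR on all 5 libraries 0 genes were called in either direction. Without the filter on low counts 163 genes were called higher and 115 lower, in lane 4 alone 211 and 131, with DESeq2 927 and 492, and with limma-voom 1230 and 947. With single libraries left out, 0 to 1245 genes were called higher and 0 to 800 lower, and only the fit without deleted 6 gave any. For the receptor genes DESeq2 called 1 higher and 1 lower and limma-voom 2 and 1, and with single libraries left out 0 to 1 were called in each direction, both only without deleted 6. The cause of these differences was not tested.

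The sign held under all 11 alternatives for 9 of the 10 receptor genes. Ppard was the exception, at 0.12 with limma-voom, 0.04 without deleted 6 and 0.12 without wild-type 3, and from -0.27 to 0.12 with single libraries left out. Over the alternatives, the log2 fold change of Vdr ran from -2.14 to -1.66 (adjusted p from 4.03e-05 to 0.840), that of Ahr from 1.07 to 1.94 (0.0119 to 0.840) and that of Rxra from 0.82 to 1.39 (0.0378 to 0.840). Pparg ran from 0.25 to 1.70 and Nr1h3 from 0.29 to 1.93. Depth limits Vdr and Ppard most, with as few as 56 and 86 counts in a library.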
